A study of Mus musculus with 6 samples.

Results

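The genes described here mark the first lineages that an embryo makes from its pluripotent epiblast: mesoderm, definitive endoderm and neuroectoderm. They are a list of 39 marker genes, 15 of mesoderm, 6 of definitive endoderm and 18 of neuroectoderm, and every probe set whose platform annotation named exactly 1 of them was taken. This gave 69 probe sets for 38 genes, out of 45037 probe sets on the array. The mesoderm gene T was not analysed here. The cells were mouse embryonic stem cells (mESCs) of strain 129SV/C57BL/6, either wild type or knocked out for Setd2, each on 3 arrays described as biological repeats, with no treatment in either. Setd2 encodes the enzyme that trimethylates histone H3 at lysine 36 along transcribed genes. All cells were grown on feeder cells and then passed on gelatin to remove most of the feeders. The labels do not say how the deletion was made or whether the repeats of a genotype came from separate clones, so p-values measure the spread between these arrays.

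Gastrulation turns the epiblast into germ layers. Wnt and Nodal signals at the primitive streak switch on T-box and homeobox factors that lead to mesoderm and definitive endoderm, while cells that escape these signals switch on Sox1 and other neural factors. In embryonic stem cells most of these genes are held silent or barely transcribed, many of them at CG-rich promoters that Polycomb complexes occupy. A few, such as Gbx2, are used by the stem cells themselves.

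Values are log2 signals from MAS5, the Affymetrix algorithm that gives 1 signal per probe set. The targeted gene Setd2 read 10.31, 10.30 and 10.31 on the wild type arrays and 9.37, 9.50 and 9.60 on the knockout arrays. Pou5f1, Nanog and Sox2, which define embryonic stem cells, had mean log2 signals of 12.67 or more in both genotypes. All 10 listed embryonic stem cell genes were above background in wild type, and 1 of them changed: Zfp42, a zinc finger gene of naive stem cells on chromosome 8, fell by 1.99 on the log2 scale (limma adjusted p = 8.37e-05). The summed linear signal of these 10 genes was 107258 to 108914 on the wild type and 95584 to 100674 on the knockout arrays, and its part in the results below was not tested. Eif2s3y, a gene of the Y chromosome, averaged 4.92 in wild type and 11.30 in knockout cells at its brighter probe set, so the genotypes are also different cell lines in this respect, and an effect of Setd2 and a difference between the lines cannot be told apart. Feeder cells, if left over, could add fibroblast signal: 20 of 24 fibroblast markers with a probe set were above background in wild type, and their summed linear signal ran from 16951 to 28610 on the wild type and from 18873 to 26439 on the knockout arrays. Their part in the results below was not tested.

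Whether a marker was on at all was judged against 86 probe sets of olfactory, vomeronasal and taste receptor genes, which are little used outside sensory cells. A probe set was called above background when each of the 3 wild type arrays exceeded the 95th percentile of these receptor probe sets, which lay between 5.47 and 5.76 on the wild type arrays. By this rule 17 of the 38 genes, or 44.7%, were above background in wild type mESCs, against 63.7% of all 18193 named genes. Of the 69 probe sets 20 passed, where 51.3% of all probe sets did, 38 were at or below the level on every wild type array and 11 exceeded it on only some. The share differed by layer, with 3 of 14 mesoderm genes, 3 of 6 definitive endoderm genes and 11 of 18 neuroectoderm genes above background. In bulk RNA, a few differentiating cells and a low level in every cell cannot be told apart.

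**Figure D1:**
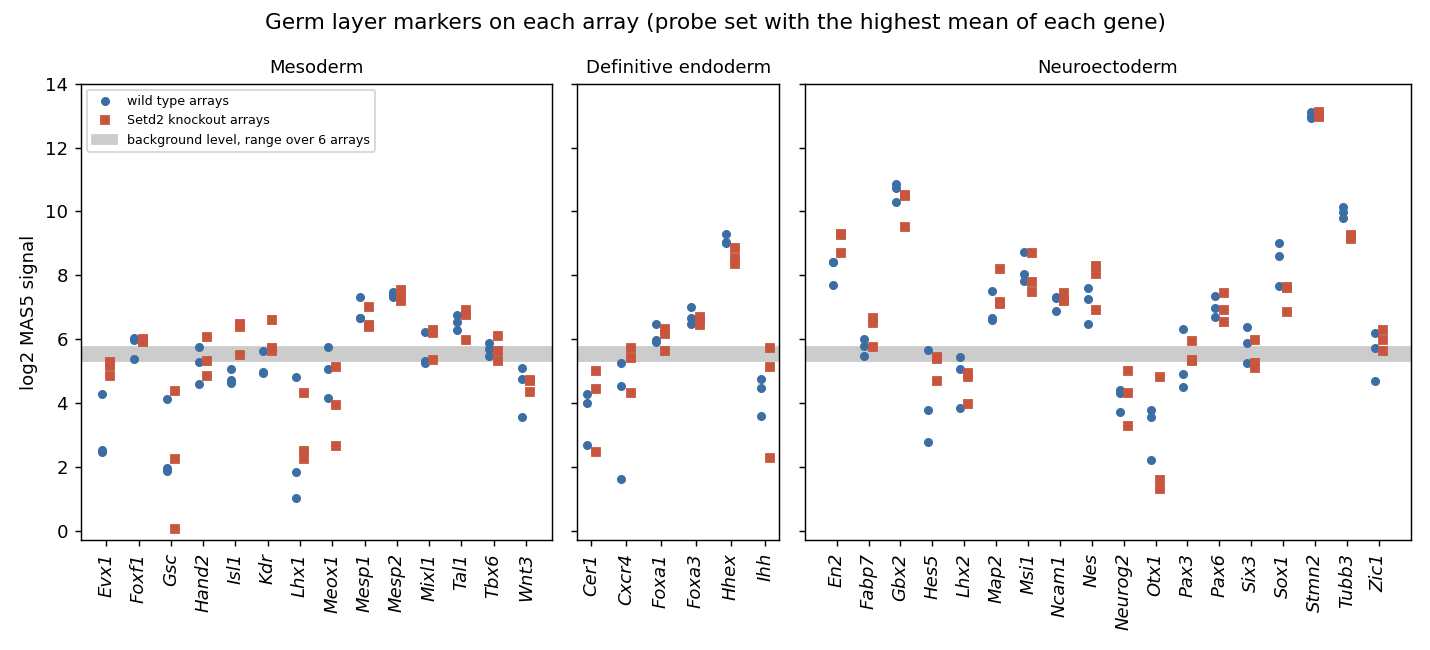
Log2 MAS5 signal (vertical axis) of each germ layer marker on the 3 wild type (circles) and 3 Setd2 knockout (squares) arrays, at the probe set of each gene with the highest mean. The grey band is the range of the background level over the 6 arrays. Most mesoderm markers lie in it or below it on 1 or more arrays, and only Mesp1, Mesp2 and Tal1 lie above it on every array. Hhex and Foxa3 of the definitive endoderm lie above it on every array. So do the neuroectoderm markers Gbx2, Tubb3, En2, Sox1, Msi1, Stmn2, Pax6, Nes, Map2 and Ncam1.

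The mesoderm markers were mostly dim. In wild type cells 3 genes exceeded the background level on all arrays. Mesp1, a basic helix-loop-helix factor of the earliest cardiac mesoderm, read 6.66, 6.67 and 7.33 in wild type and 6.43, 6.99 and 6.39 in knockout cells. Mesp2, its neighbour that patterns the somites, read 7.39, 7.48 and 7.33 against 7.55, 7.18 and 7.41. Tal1, a factor that starts blood formation, read 6.29, 6.76 and 6.54 against 5.99, 6.90 and 6.75. The genotypes overlapped for all 3 genes.

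The streak genes Mixl1, Gsc, Evx1, Lhx1 and Wnt3, the paraxial factors Tbx6 and Meox1, the limb and heart factor Hand2, the second heart field factor Isl1, the visceral mesoderm factor Foxf1 and the endothelial receptor Kdr were not above background on all wild type arrays. Means of their probe sets in wild type ran from 1.47 to 5.80. For such dim probe sets a change of the RNA could be missed, and differences of their signals carry no reliable fold.

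The genotypes were compared with limma over the whole table, two-sided, with Benjamini-Hochberg adjusted p-values and a threshold of 0.05. Probe sets were tested when their mean over all 6 arrays reached 5.27, the 40th percentile. Of the 69 probe sets 32 were tested, for 26 genes; the dimmest tested one averaged 5.30 and the brightest untested one 5.18. None of the 32 passed, where 0.648% of the 27022 tested probe sets did, 74 higher (0.274%) and 101 lower (0.374%). An unadjusted p under 0.05 was reached by 5 of them, and 11.7% of all tested probe sets reached it. The wild type and knockout arrays also split by their replicate number, and a limma fit with that number as a block called 5 of the 32, 1 higher and 4 lower. That is 15.6% of the tested members, where the blocked fit called 7.88% of all tested probe sets. Without the filter the blocked fit called 4 of the 69, where it called 3.55% of all probe sets, and without both arrays numbered 1 the fit called 4 of the 31 members it tested, against 7.49%.

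No mesoderm probe set was called in either fit, out of 9 tested. An unadjusted p under 0.05 was reached by 1 of them, and by 11.7% of all tested probe sets. The median difference over the 9 tested mesoderm genes was 0.16 on the log2 scale, with 7 genes above 0, beside a median of 0.00 over all 12915 tested genes. It ran from 0.02 (without wild type replicate 3) to 0.21 (without knockout replicate 1) with single arrays left out, and was 0.01 without chromosomes 8 and Y. Isl1 and Kdr stood furthest from 0.

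At Isl1 (1450723_at) the log2 signals were 5.06, 4.63 and 4.73 in wild type and 6.47, 5.52 and 6.37 in knockout cells. All knockout arrays lay above all wild type arrays. The knockout exceeded the background level on 2 of its 3 arrays and the wild type on none. The wild type mean of 4.81 was below the filter value, and the probe set was tested because of its knockout mean of 6.12. With wild type below background, the difference of 1.31 ± 0.37 (SE; 95% interval 0.47 to 2.15) carries no reliable fold. The difference missed the threshold without the block (limma adjusted p = 0.196) and with it (limma adjusted p = 0.0608). A second, untested Isl1 probe set overlapped between the genotypes.

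At Kdr (1449379_at), the gene of a receptor for vascular endothelial growth factor, the signals were 4.93, 5.63 and 4.98 against 5.64, 6.60 and 5.72. Kdr was the 1 member above background on all 3 knockout arrays and on no wild type array, a pattern that 0.338% of all probe sets showed. With the background level put in for each wild type array, the knockout mean stood 1.33-fold above it. This value leaves out the spread between arrays and is no reliable fold. The background levels of the knockout arrays were 5.32, 5.57 and 5.66, the last close to the signal of 5.72. The wild type mean of 5.18 was below the filter value, so Kdr too was tested because of its knockout signals. The difference was 0.81, and its 95% interval of -0.07 to 1.68 held 0. The test did not call Kdr (limma adjusted p = 0.470; 0.201 with the replicate block). Of the 6 endothelial markers, 3 were above background in wild type, and their summed linear signal was 670.0 to 805.4 in wild type and 542.3 to 636.7 in knockout cells. This sum was lower on every knockout array than on any wild type array, and its difference was not tested.

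Among the tested mesoderm markers the other 7 genes differed by -0.28 to 0.35. Foxf1 (1423013_at) differed by 0.16 with an interval of -0.50 to 0.82, and Mixl1, a homeobox factor of the streak, by 0.35 (-0.56 to 1.25). Mesp2 differed by -0.02 (-0.44 to 0.39). Among dim untested probe sets, Evx1, a homeobox gene of the posterior streak, read 2.46, 2.52 and 4.30 in wild type and 5.16, 5.29 and 4.84 in knockout cells. All its arrays lay below the background level, and without the filter it was not called (limma adjusted p = 0.356).

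Of the definitive endoderm markers, Hhex, Foxa1 and Foxa3 were above background in wild type, and Cxcr4, Cer1 and Ihh were not. Cxcr4 is the chemokine receptor used to sort definitive endoderm, Cer1 a secreted inhibitor of Nodal and Bmp, and Ihh a hedgehog ligand. Their 4 probe sets had wild type means from 3.22 to 4.26 and none was tested.

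Hhex (1423319_at), a homeobox repressor of anterior endoderm, liver and blood vessels, read 9.28, 9.03 and 8.99 in wild type and 8.85, 8.53 and 8.35 in knockout cells. Every knockout array lay below every wild type array. The difference was -0.53 ± 0.17 (SE), a signal 1.44-fold lower. Hhex was not called without the block (limma adjusted p = 0.280) and fell with it (limma adjusted p = 0.0204). Within numbers 1, 2 and 3 it differed by -0.43, -0.51 and -0.64.

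Foxa1 and Foxa3 encode forkhead pioneer factors of the gut and liver. Foxa1 read 5.91, 6.48 and 5.98 against 6.33, 6.16 and 5.63, and differed by -0.08 (95% interval -0.78 to 0.61). Foxa3 read 7.01, 6.46 and 6.65 against 6.69, 6.60 and 6.44, and differed by -0.13 (-0.66 to 0.40). Both overlapped between the genotypes, and neither was called with or without the block (limma adjusted p from 0.799 to 0.955). With 3 tested genes, all of them below 0, the median of the layer was -0.13, and from -0.25 (without wild type replicate 2) to -0.06 (without knockout replicate 3) with single arrays left out. Without the filter the median over all 6 genes was 0.01.

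The neuroectoderm held 11 of the 17 genes above background and 4 of the 5 probe sets called with the block. Among its 20 tested probe sets 1 rose and 3 fell in that fit, which is 20.0% of them, where 3.49% of all tested probe sets rose and 4.39% fell. Without the block none was called in limma, and 3 reached an unadjusted p under 0.05, against 11.7% of all tested probe sets. The median over its 14 tested genes was 0.07, with 8 genes above 0. With single arrays left out the median ran from -0.0068 (without wild type replicate 1) to 0.17 (without knockout replicate 1), and it was 0.21 without chromosomes 8 and Y.

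**Figure D2:**
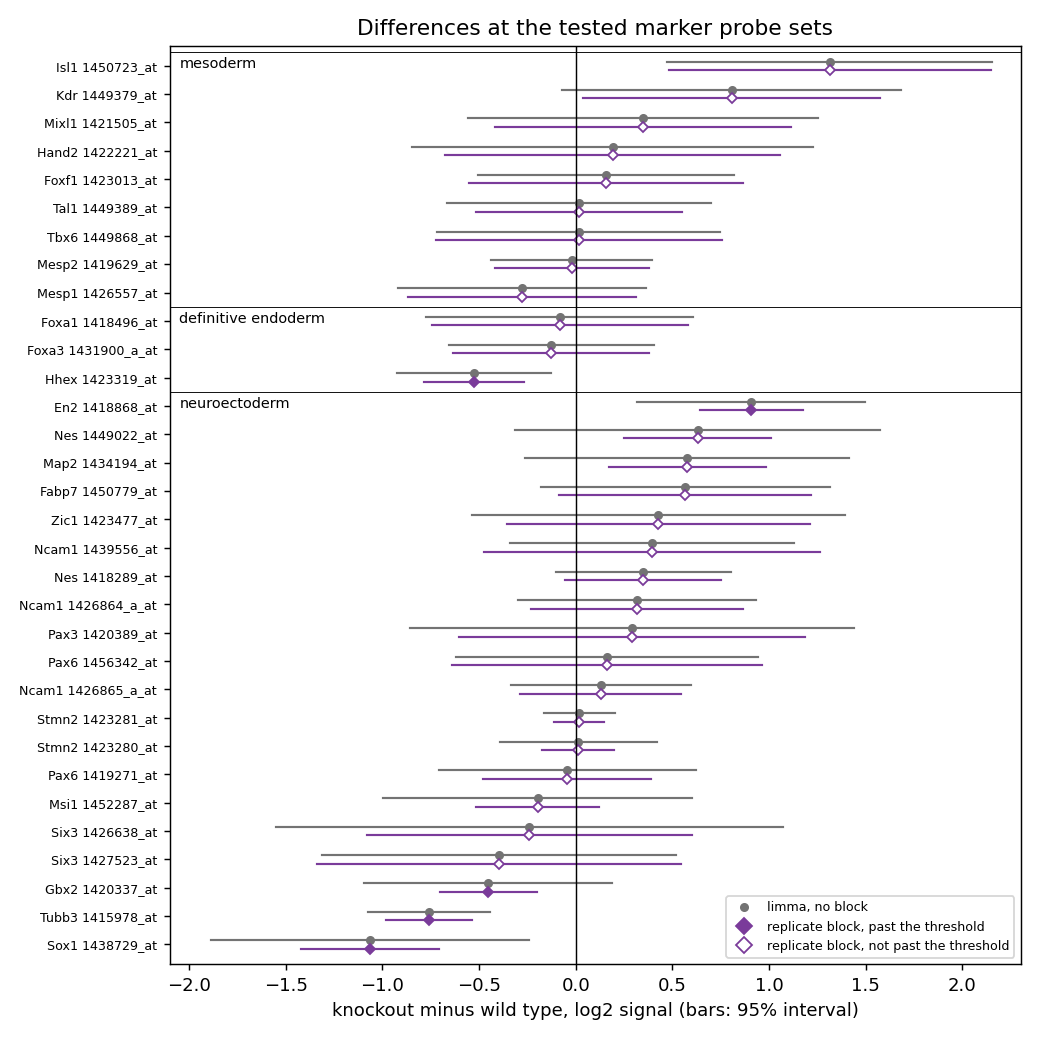
Knockout minus wild type difference in log2 signal (horizontal axis) at the 32 tested marker probe sets, with 95% intervals from limma without a block (grey circles) and with the replicate number as a block (purple diamonds, filled where the adjusted p is below 0.05). The filled diamonds are En2 above 0 and Hhex, Gbx2, Tubb3 and Sox1 below 0; 27 of the 32 grey intervals hold 0.

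Sox1 (1438729_at), the earliest specific factor of the neural plate, read 7.68, 9.02 and 8.59 in wild type and 6.86, 7.65 and 7.59 in knockout cells. The knockout arrays all lay below the wild type arrays, the highest of them at 7.65 against a lowest wild type value of 7.68. The difference was -1.06 ± 0.36 (SE), or 2.09-fold less signal (limma adjusted p = 0.289 without a block and 0.00303 with it). Within numbers 1, 2 and 3 it was -0.819, -1.371 and -1.002. Its other, untested probe set (1422205_at) was lower without overlap too, at -0.86, but below background on every array.

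Tubb3 (1415978_at), the beta tubulin of neurons, read 9.78, 9.99 and 10.14 against 9.14, 9.22 and 9.27. The groups stood apart by more than the range within either of them. The difference was -0.76 ± 0.14 (SE), a signal 1.69-fold lower, with the lowest adjusted p of all 32 tested member probe sets in the fit without a block (limma adjusted p = 0.0618; 0.00144 with the block). Within numbers 1, 2 and 3 it was -0.65, -0.77 and -0.87.

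Sox1 and Tubb3 lie on chromosome 8, whose genes were lower as a whole. The 709 tested genes of chromosome 8 centred on -0.34 (median), 86.3% of them below 0, while those of X and the other autosomes centred on 0.01, 48.0% of them below 0. Of these 709 genes 17 (2.40%) had a lower difference than Sox1 and 61 (8.60%) a lower one than Tubb3, and the blocked fit called 270 of them (38.1%) lower. The fall of both genes therefore cannot be told apart from that of their chromosome. The mesoderm markers Hand2 and Foxf1 lie on chromosome 8 as well and differed by 0.19 and 0.16. They were dim, and 92.7% and 91.3% of the chromosome's tested genes lay below them.

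**Figure D3:**
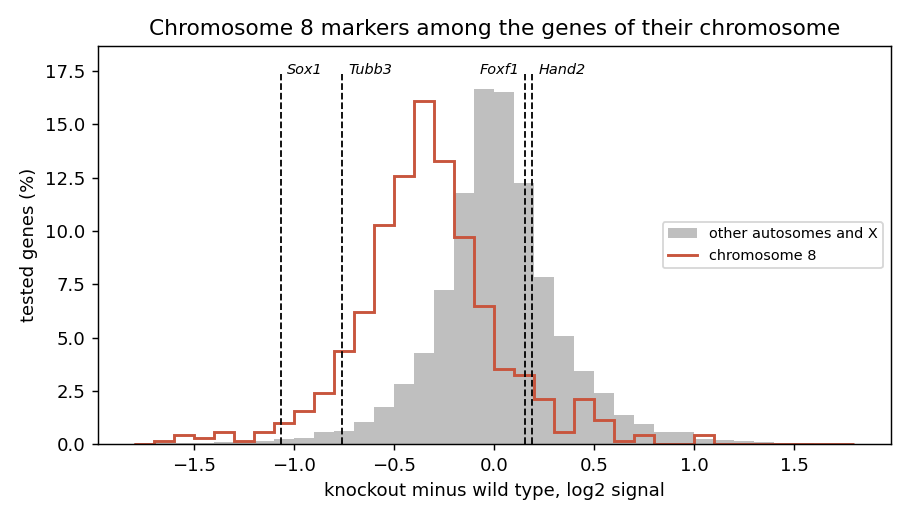
Percent of tested genes (vertical axis) by knockout minus wild type difference in log2 signal (horizontal axis), for chromosome 8 (red line) and for the other autosomes and X (grey). Dashed lines mark the 4 tested germ layer markers of chromosome 8: Sox1 and Tubb3 lie below the chromosome's median of -0.34, Foxf1 and Hand2 above 0; 2 genes of chromosome 8 and 23 others fall outside the range shown.

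Gbx2 (1420337_at), a homeobox gene of the hindbrain border that also acts in naive stem cells, read 10.29, 10.85 and 10.72 in wild type and 9.50, 10.48 and 10.52 in knockout cells. The genotypes overlapped, and in each the array numbered 1 was lowest. The difference was -0.45 ± 0.28 (SE; limma adjusted p = 0.606), and it fell in the blocked fit (limma adjusted p = 0.0352). Within numbers 1, 2 and 3 it was -0.79, -0.37 and -0.20, so number 1 gave the largest share of it. Without both arrays numbered 1 the difference was -0.28 and the call was lost (limma adjusted p = 0.0958).

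En2 (1418868_at), a homeobox factor of the midbrain and hindbrain border, was the 1 member that rose with the block. It read 7.68, 8.42 and 8.43 in wild type and 8.69, 9.29 and 9.27 in knockout cells. No knockout array was as low as any wild type array. The difference was 0.91 ± 0.26 (SE), a 1.88-fold higher signal (limma adjusted p = 0.204; 0.00156 with the block), and 1.01, 0.87 and 0.85 within numbers 1, 2 and 3. Without both arrays numbered 1 it was 0.86 (limma adjusted p = 0.00324).

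**Figure D4:**
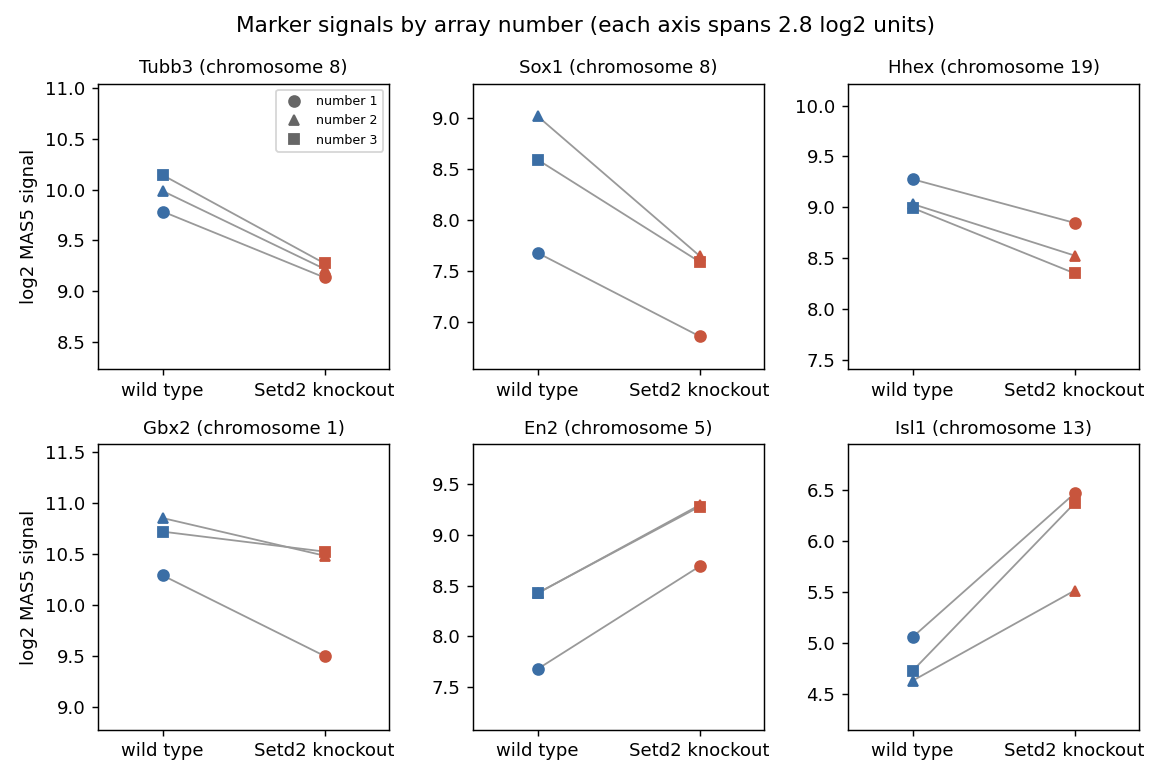
Log2 MAS5 signal of 6 markers in wild type (blue) and Setd2 knockout (red) arrays, with a line joining the arrays of the same replicate number (circle 1, triangle 2, square 3). Every line falls for Tubb3, Sox1, Hhex and Gbx2 and rises for En2 and Isl1; for Tubb3, Sox1, Gbx2 and En2 the arrays numbered 1 lie lowest in both genotypes.

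The promoters of the members that fell together with the block are shown because CG-rich starts are a feature that many germ layer genes share. Whether CG content bears on their fall was not tested. The 250 bases before the transcription start are given 5′ to 3′ on the gene's strand, from RefSeq on GRCm38.p6, with every CG in capitals.
Sox1, chr8:12395269-12395518, plus strand: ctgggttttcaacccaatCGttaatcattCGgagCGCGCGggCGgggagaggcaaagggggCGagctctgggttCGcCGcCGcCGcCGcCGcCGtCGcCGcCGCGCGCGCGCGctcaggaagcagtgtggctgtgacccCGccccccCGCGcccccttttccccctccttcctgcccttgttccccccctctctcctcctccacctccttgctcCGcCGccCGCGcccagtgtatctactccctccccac
Tubb3, chr8:123411303-123411552, plus strand: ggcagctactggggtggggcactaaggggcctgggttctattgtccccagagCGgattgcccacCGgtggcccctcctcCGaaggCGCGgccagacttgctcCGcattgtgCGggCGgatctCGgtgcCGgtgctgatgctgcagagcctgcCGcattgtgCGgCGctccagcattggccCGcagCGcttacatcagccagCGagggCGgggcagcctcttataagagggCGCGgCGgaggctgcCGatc
Gbx2, chr1:89931177-89931426, minus strand: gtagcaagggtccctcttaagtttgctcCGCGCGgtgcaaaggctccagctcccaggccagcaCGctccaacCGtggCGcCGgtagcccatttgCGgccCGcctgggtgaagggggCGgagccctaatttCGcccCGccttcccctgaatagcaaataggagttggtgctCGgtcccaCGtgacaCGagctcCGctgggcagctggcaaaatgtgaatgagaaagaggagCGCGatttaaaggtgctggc
Hhex, chr19:37434591-37434840, plus strand: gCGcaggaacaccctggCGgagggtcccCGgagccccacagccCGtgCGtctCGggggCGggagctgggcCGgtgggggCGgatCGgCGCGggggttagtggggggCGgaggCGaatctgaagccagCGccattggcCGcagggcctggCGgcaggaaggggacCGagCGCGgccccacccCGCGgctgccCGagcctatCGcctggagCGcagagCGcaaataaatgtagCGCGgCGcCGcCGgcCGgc

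These windows held 29 CG in Sox1, 21 in Tubb3, 18 in Gbx2 and 32 in Hhex. A count as high as that of Hhex was found in 4.58% of the 32851 promoters in the table, and one as high as that of Gbx2 in 21.7%. A CG reads the same on both strands. Of the 38 genes 29 matched the table, with 32 promoters in all, and the other members, En2 among them, are named only. The member promoters held a median of 18 CG, from 2 in Mesp1 to 34 in Map2, beside a median of 6 over all promoters. Above that median of 6 lay 27 of the 32, against 46.3% of all promoters. Isl1, which was tested and not called, held 33, and Hes5, which was not among the tested genes, held 32. Neither was above background in wild type.

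The neural markers that were above background and not called were the larger group, and not all of them were bright. Stmn2, a microtubule regulator of growing axons, read 12.92, 12.98 and 13.11 in wild type and 12.99, 12.96 and 13.11 in knockout cells at 1423281_at, with a difference of 0.02 (95% interval -0.17 to 0.20). Its second probe set differed by 0.01 (-0.39 to 0.42). Msi1, an RNA-binding protein of neural progenitors, read 8.72, 8.03 and 7.82 against 8.70, 7.80 and 7.48 at 1452287_at. The arrays numbered 1 were highest in both genotypes, and the genotypes differed by -0.20 (-0.995 to 0.60).

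Nestin, the intermediate filament of neural progenitors, was above background at 2 of its 3 probe sets. Nes read 7.01, 7.15 and 6.79 against 7.39, 7.45 and 7.15 at 1418289_at, a difference of 0.35 (-0.10 to 0.80). At 1449022_at Nes read 7.60, 7.27 and 6.46 against 8.30, 8.03 and 6.90, a difference of 0.63 that missed the threshold narrowly with the block (limma adjusted p = 0.0515; 0.633 without it). The genotypes overlapped at both, although every knockout array exceeded the wild type array of its own number.

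Map2, a microtubule-associated protein of dendrites, read 7.50, 6.59 and 6.65 against 8.21, 7.16 and 7.09 at 1434194_at. Both arrays numbered 1 lay above the other 4, and the difference was 0.58 (-0.26 to 1.41; limma adjusted p = 0.621, and 0.0871 with the block). All 4 Map2 probe sets had a higher knockout mean, but 3 of them were not above background in wild type. Fabp7, a fatty acid binding protein of radial glia, read 6.01, 5.77 and 5.47 against 6.52, 6.68 and 5.75, a difference of 0.57 (-0.18 to 1.31). Its wild type array numbered 3 exceeded the background level of 5.47 only at the third decimal.

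Pax6, a master factor of eye and forebrain, read 6.69, 7.36 and 6.97 against 6.53, 7.44 and 6.90 at its brightest probe set (1419271_at), a difference of -0.05 (-0.71 to 0.62). Its 4 other probe sets were not above background. Ncam1, a neural cell adhesion molecule, was above background at 2 of 7 probe sets, which differed by 0.32 (-0.30 to 0.93) and 0.13 (-0.34 to 0.60). All these genes overlapped between the genotypes at the probe sets above background.

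The neural factors Zic1, Otx1, Six3, Lhx2, Neurog2, Hes5 and Pax3 were not above background on all wild type arrays. Zic1 read 4.70, 5.72 and 6.19 against 5.64, 6.29 and 5.97 at its brighter probe set, with 1 of 3 wild type and 3 of 3 knockout arrays above the level. The difference was 0.43 (-0.54 to 1.39). Pax3, a paired-box factor of the dorsal neural tube, read 4.51, 6.33 and 4.91 against 5.32, 5.94 and 5.36 at its tested and brightest probe set, 1420389_at. The genotypes overlapped there, and the difference was 0.29 (-0.86 to 1.44; limma adjusted p = 0.887). At the untested Pax3 probe set 1441743_at the signals were 1.24, 2.62 and 2.55 against 5.33, 4.22 and 3.93. The genotypes did not overlap at this dim probe set, but all but 1 of the 6 values were below the background level, and without the filter Pax3 was not called (limma adjusted p = 0.321; 0.210 with the replicate block). No untested member probe set was called by limma without the filter, with or without the block, and 4 and 2 of them reached an unadjusted p under 0.05 without and with it.

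Across all members, knockout and wild type arrays did not overlap at 7 of the 32 tested probe sets (21.9%), 4 higher and 3 lower, against 18.1% of all tested probe sets, 9.16% higher and 8.99% lower. Among the 37 untested probe sets the genotypes did not overlap at 8 (21.6%), 6 higher and 2 lower, against 11.2% of all untested probe sets, 7.09% higher and 4.13% lower. Of the 16 genes with more than 1 probe set, 7 had a higher knockout mean at every probe set, 2 a lower one at every probe set and 7 had both signs. Both arrays numbered 1 lay outside the range of the other 4 at 9 of the 32 tested probe sets (28.1%), against 36% of all tested probe sets.

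Other genes linked to mesoderm, endoderm or neuroectoderm were followed as lists. The endoderm list was not limited to markers of definitive endoderm. Of 22 tested other mesoderm genes limma called none without the block (5 at an unadjusted p under 0.05), and with it 1 rose and 3 fell; the median was -0.05. The 2 brightest, Tcf15 and Tbx3, differed by -0.30 (-0.59 to -0.02, limma adjusted p = 0.401, and 0.0323 with the block) and 0.02 (-0.57 to 0.61). Of the 3 that fell with the block Bmp4 differed most, by -1.09 (limma adjusted p = 0.324, and 0.000357 with the block). The 1 that rose was Cdx2, by 1.01 (limma adjusted p = 0.243, and 0.0449 with the block). Of 11 tested other endoderm genes 1 fell, Gata6, by 1.63 on the log2 scale (limma adjusted p = 0.0372), and the median was -0.09. With the block 2 rose, Nodal by 0.51 and Epcam by 0.47, and 2 fell, Gata6 and Sox17. Sox17 fell by 1.55 (limma adjusted p = 0.105, and 0.0221 with the block). Of 28 tested other neuroectoderm genes 2 rose, Sox11 by 0.86 and Pou3f1 by 0.78 (limma adjusted p = 0.0356 for both), and with the block 9 rose and 0 fell, around a median of 0.06. Sox11 encodes a factor of early neurons and neural progenitors. The summed linear signal of that neural list ran from 32061 to 34317 in wild type and from 34393 to 42208 in knockout cells. Its brightest gene was Sox2 (means 13.59 and 13.66), which also counts in the embryonic stem cell list, so the sum is not specific to neural cells. Among the neural members 1 (En2) rose and 3 fell in the blocked fit, of which Sox1 and Tubb3 lie on chromosome 8. The fibroblast markers gave 0 calls of 22 tested in limma without the block (2 at an unadjusted p under 0.05) and 2 higher with it. Of all tested probe sets limma called 0.648% without the block and 7.88% with it (3.49% higher, 4.39% lower). An unadjusted p under 0.05 was reached by 11.7% of them.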

How the data were processed

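The deposited table holds log2 signals that the authors made with MAS5, per the submitters' processing notes; the version is not given in the sources used here. The antilog mean after trimming 2% at each end was alike on all 6 arrays, and no further normalization was applied. Probe sets were named from the platform annotation, 34945 with 1 gene, 932 with several and 9160 unnamed here, with symbols brought up to date by gene identifier against RefSeq on GRCm38.p6, which also gave chromosomes. Detection calls were not used here. Differences were fitted with limma 3.58.1 in R 4.3.3 (lmFit, eBayes with an intensity trend) over 27022 probe sets and adjusted over all of them; the fit was tested on simulated data. For medians, each gene was represented by the tested probe set of highest mean. Replicate numbers come from the titles, and deviations from the genotype means correlated at 0.50, 0.23 and 0.24 between arrays of the same number, each above 0.1, so blocked values are given too. Numbers 2 and 3 are not clearly told apart, since wild type 2 correlated at 0.23 with knockout 3. A split of number 1 alone also makes the values for numbers 2 and 3 positive, so their pairing rests on the titles. The labels do not say what arrays of the same number share. The members and lists were chosen with earlier results of these data known. All members were named. Of the other lists, up to 4 genes past the threshold or else the 2 brightest were named, with Bmp4, Cdx2, Sox17, Nodal and Epcam added from the blocked fit. Alternatives covered normalization, filter, trend, block, left-out arrays, chromosomes 8 and Y and the background level. For arrays, their number limits the precision.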

Additional observations from a re-analysis of the deposited data

How the results depend on the processing

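Member calls turned on the replicate number. Without the block, and with the arrays numbered 1 both kept or only 1 of them left out, limma called no member under any normalization, filter, trend, chromosome or left-out array setting tried (5 reached an unadjusted p under 0.05 with all arrays). The replicate block called 1 definitive endoderm and 4 neuroectoderm probe sets, and no filter with the replicate block, chosen after seeing the data, called 1 and 3, losing Gbx2 (limma adjusted p = 0.0610). Without both arrays numbered 1 the counts were again 1 and 3, and with the replicate block without chromosomes 8 and Y, added after seeing the data, 1 and 2, since Sox1 and Tubb3 are left out there. Mesoderm stayed at 0 under every alternative run. Over all probe sets the count of 175 became 57 without the intensity trend, 2129 with the replicate block, 1599 with the block and no filter, 2025 without both arrays numbered 1 and 1549 with the block and without chromosomes 8 and Y, and it ran from 33 (without wild type replicate 3) to 437 (without knockout replicate 1) with single arrays left out. Which part of the array split raised the counts was not tested.

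The number of mesoderm genes above background rose from 3 to 6 at the 90th percentile of the receptor probe sets and ran from 3 to 5 with single wild type arrays left out, 5 without wild type replicate 2. The definitive endoderm median went from -0.13 to -0.53 with the filter at the 60th percentile, where fewer genes are tested, to -0.34 without both arrays numbered 1 and to 0.014 without the filter. At the 60th percentile filter the mesoderm median, then of 1 gene, became -0.022 and the neuroectoderm median, of 10, -0.014; without both arrays numbered 1 they were 0.27 and 0.021. Small uncalled differences changed sign. Tbx6 became -0.062 under quantile normalization, -0.026 when centred on array medians and -0.099 without both arrays numbered 1. Tal1 became -0.0038 and -0.026 under those normalizations, and Pax6 (1419271_at) 0.0098 without both arrays numbered 1. Stmn2 became -0.028 (1423280_at) and -0.024 (1423281_at) when centred, and -0.016 and -0.0096 without both arrays numbered 1. With single arrays left out, differences ran from -0.11 to 0.076 for Mesp2, -0.20 to 0.19 for Tbx6, -0.11 to 0.47 for Hand2, -0.051 to 0.28 for Foxf1, -0.16 to 0.30 for Tal1, -0.23 to 0.12 for Foxa1, -0.25 to 0.023 for Foxa3, -0.29 to 0.17 and -0.063 to 0.29 for the Pax6 probe sets, -0.62 to 0.35 for Six3 (1426638_at), -0.076 to 0.40 for Pax3 (1420389_at), -0.55 to 0.069 for Msi1, -0.016 to 0.21 for Ncam1 (1426865_a_at), and -0.14 to 0.14 and -0.026 to 0.070 for Stmn2. The other 426 values of single probe sets kept their direction and their side of the threshold, and 16 newly passed it, all with the block or without both arrays numbered 1.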
